A study of Homo sapiens with 6 samples.

Results

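The cytosolic ribosomal protein genes encode the protein parts of the ribosome that translates nuclear mRNA. They were picked by symbol: RPL or RPS followed by a number and, where present, the ending A, X, L, AL or L1, together with RPLP0, RPLP1, RPLP2 and RPSA. The rule found 85 genes among 60611 in the table and used no measured value. Of these, 46 core genes belong to the large subunit and 31 to the small subunit, and 8 are paralogs whose names end in L or L1. RNA was measured in EndoC-BH5, an established human pancreatic beta-cell line labelled wild type, with 3 libraries from batches given vehicle and 3 from batches given interferon gamma together with interleukin 1b, a pair of inflammatory cytokines. The question was how the transcripts of the line differ after the cytokine pair, and neither dose nor time is given in the sources used here.

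Each ribosome needs about equal numbers of nearly all its proteins, and their genes are among the most strongly expressed in growing and secreting cells. Most of their mRNAs begin with a C followed by an unbroken run of C and T, the 5′ terminal oligopyrimidine (TOP) motif, through which the kinase mTOR and the RNA-binding protein LARP1 control their translation and stability. Several of the proteins also have roles outside the ribosome: RPL13A leaves it after interferon gamma to join the GAIT complex that blocks translation of inflammatory mRNAs, and RPS3 binds NF-kB, the factor that interleukin 1 activates. A few genes have a second copy elsewhere in the genome, the paralogs, which replace the parent protein in some cells or tissues.

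Total counts ranged from 5871481 to 16175364 per library, and the lowest total was in vehicle replicate 1. Levels are in CPM, counts brought to a common library size with TMM factors; group values are the mean ± SD (n = 3), and each change is the log2 of cytokine over vehicle, with its standard error (SE). All 11 beta-cell markers listed exceeded 1 CPM, and their summed level was 10235 to 10832 CPM in vehicle and 13800 to 14426 CPM in cytokine libraries. The 4 acinar markers summed to 5.24 to 5.97 CPM in vehicle and 4.72 to 5.65 CPM in cytokine libraries, led by CPA1, with PRSS1 at 0 counts in all 6 libraries. The 3 fibroblast and 3 endothelial markers summed to at most 1.13 CPM in any library. The 3 leukocyte markers summed to 5.24 to 5.56 CPM in vehicle and 20.8 to 22.3 CPM in cytokine libraries, led by CD68. The 3 ductal markers, led by KRT19, summed to 150.0 to 167.9 CPM in vehicle and 129.9 to 139.6 CPM in cytokine libraries, which did not overlap. The part of either list in the results was not tested. TTR led the alpha-cell list (1887 to 2083 CPM) and SST the delta-cell list (540.2 to 607.7 CPM). Vehicle replicate 2 had the highest vehicle level in 77 of 83 tested members, and cytokine replicate 3 the highest cytokine level in 67, so counts are also given without vehicle replicate 2. A smaller part of cells with a transcript and less of that transcript per cell cannot be told apart in bulk RNA.

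Ribosomal protein mRNAs were mostly lower after the cytokines, and one, RPS12, was higher. Of 83 members with enough counts to test, 66 were lower (79.5%) and 1 was higher, and 16 fell short of an adjusted p of 0.05 in the quasi-likelihood test of edgeR. Among all 17847 tested genes, 28.8% were lower and 28.3% higher. The median member had a log2 change of -0.32, or 0.802-fold, beside -0.02 for the median of all tested genes. A negative log2 change was found in 80 of 83 tested members and in 51.9% of all tested genes. The libraries of the groups did not overlap in 63 members (75.9%), beside 61.1% of all tested genes. Most falls were modest: 6 members were lower by more than 1.5-fold, which 11.3% of all tested genes were. Without vehicle replicate 2, 58 members were lower and 2 higher.

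The choice of scaling moves these values without turning them. TMM factors lay between 1.06 and 1.08 for vehicle libraries and between 0.931 and 0.935 for cytokine libraries. With library size alone, the median of all genes shifted by -0.20 on the log2 scale, 78 members were lower and 1 higher, and the median member changed by -0.52, where 49.2% of all tested genes were lower and 16.7% higher. Of the 66 lower members, 55 were lower under each of 16 other settings of the test. RPS12 was higher under all 16.

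Members together held 2.702%, 2.835% and 2.642% of all counts in the vehicle libraries (replicates 1, 2 and 3) and 1.741%, 1.771% and 1.868% in the cytokine libraries. The lowest vehicle share lay above the highest cytokine share, and the mean went from 2.73 ± 0.099% to 1.79 ± 0.066% (SD, n = 3), a ratio of 0.658. This share uses no composition scaling, so it also moves when other genes take up more of the library. Large-subunit genes went from 1.71 ± 0.060% to 1.07 ± 0.036%, small-subunit genes from 0.982 ± 0.037% to 0.695 ± 0.030%, and the paralogs from 0.0318 ± 0.0021% to 0.0256 ± 0.0003% (SD, n = 3). The genes of the mitochondrial genome went from 3.78 ± 0.028% to 3.52 ± 0.026%, and mitochondrial ribosomal protein genes from 0.234 ± 0.0045% to 0.200 ± 0.0061% (SD, n = 3).

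**Figure D1:**
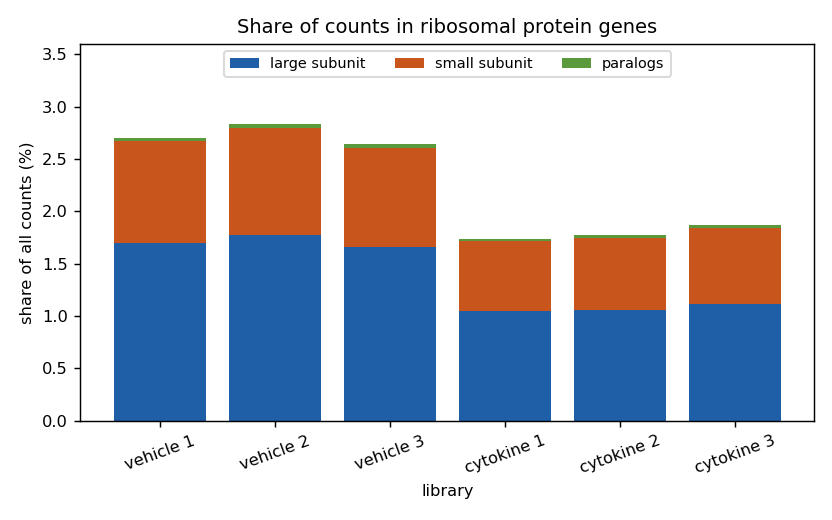
Stacked bars give the percent of all counts in each library (horizontal axis) that fell in large-subunit, small-subunit and paralog genes. The 3 vehicle bars end between 2.64% and 2.83% and the 3 cytokine bars between 1.74% and 1.87%.

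**Figure D2:**
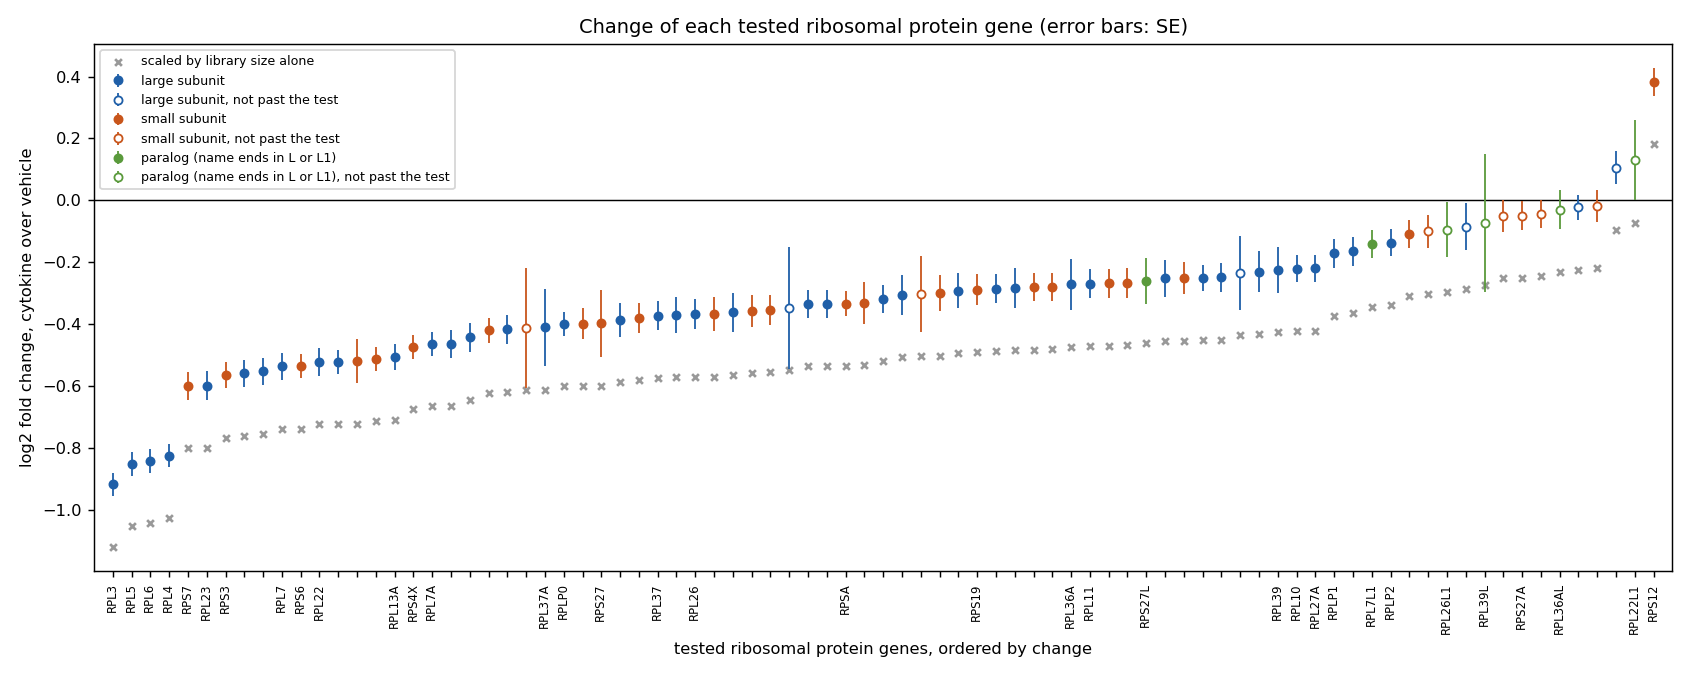
Points give the log2 fold change of each of 83 tested members, in order, with the SE as error bar. Colours mark the subunit or paralog, open points did not pass the test, and grey crosses give the change with library size alone. Names are given for the genes followed across all settings. RPL3 stands lowest at -0.92 and RPS12 highest at 0.38.

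Start sequences are shown because the TOP motif sits there and most members were lower together. They come from RefSeq, build GRCh38.p14, whose table matched 68 members by symbol with 84 annotated starts. In each, 10 bases precede the start and 20 follow it, read 5′ to 3′, and capitals mark the unbroken run of C or T that begins at the start. These are annotated starts, not starts measured in these libraries. The first set holds 4 of the 6 members with the largest falls, and RPL5 and RPL23 are not shown.
RPL3, chr22:39319604-39319633, minus strand: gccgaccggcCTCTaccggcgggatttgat
RPL4, chr15:66504836-66504865, minus strand: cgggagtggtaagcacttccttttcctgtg
RPL6 start 1 of 2, chr12:112411423-112411452, minus strand: gtatcctcagTgaatcagaaccagaaaaag
RPL6 start 2 of 2, chr12:112409266-112409295, minus strand: gacggcgcgtgcactgtgttcctggtcctg
RPS7, chr2:3575250-3575279, plus strand: cgccctcctcCTCgcgctgtttccgcctct

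No listed start of these 4 genes begins a run of 5 or more. The starts of RPL3 and RPS7 lie inside longer runs, of 5 and 11 bases, that begin before the start. The second set holds RPS12, the one member that rose, and members with known roles in signalling, the GAIT complex, mTOR signalling or the ribosomal stalk, which fell.
RPS12, chr6:132814559-132814588, plus strand: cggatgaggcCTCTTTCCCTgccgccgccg
RPS3, chr11:75399508-75399537, plus strand: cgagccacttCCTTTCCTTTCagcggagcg
RPL13A, chr19:49487598-49487627, plus strand: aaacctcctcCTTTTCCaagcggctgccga
RPS6, chr9:19380217-19380246, minus strand: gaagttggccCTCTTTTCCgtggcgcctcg
RPLP0, chr12:120201092-120201121, minus strand: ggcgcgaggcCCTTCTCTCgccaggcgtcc

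All 5 begin with C and carry runs of 7 to 11 bases, so the gene that rose and those that fell share this feature. RPS12 has a run of 10. The third set sets paralogs beside their parent genes, except RPL7L1, whose parent RPL7 is not shown.
RPL22, chr1:6199576-6199605, minus strand: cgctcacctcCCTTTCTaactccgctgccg
RPL22L1, chr3:170870176-170870205, minus strand: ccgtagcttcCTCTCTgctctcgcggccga
RPL26, chr17:8383174-8383203, minus strand: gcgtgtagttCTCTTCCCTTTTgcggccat
RPL26L1 start 1 of 2, chr5:172958719-172958748, plus strand: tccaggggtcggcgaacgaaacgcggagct
RPL26L1 start 2 of 2, chr5:172958870-172958899, plus strand: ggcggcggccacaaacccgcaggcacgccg
RPL36A, chrX:101391001-101391030, plus strand: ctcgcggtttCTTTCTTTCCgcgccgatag
RPL36AL, chr14:49620607-49620636, minus strand: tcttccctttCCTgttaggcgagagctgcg
RPS27, chr1:153990752-153990781, plus strand: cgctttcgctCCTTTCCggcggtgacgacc
RPS27L, chr15:63157458-63157487, minus strand: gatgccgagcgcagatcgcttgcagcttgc
RPL7L1, chr6:42879606-42879635, plus strand: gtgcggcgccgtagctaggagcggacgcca

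Of the paralogs in this set, RPL22L1 alone has a run of 5 or more, and RPL36AL has one of 3, inside a run of 15 that begins before the start. Over all members, a start with C followed by C or T to a run of at least 5 was found at any listed start of 47 of 68 (69.1%), beside 5.14% of 27305 genes in the table. It was present in 46 of 62 core members and in 1 of 6 paralogs, and in 6 of 68 mitochondrial ribosomal protein genes (8.82%), whose products serve the other ribosome of the cell. On the sense strand of the 30-base window, CTTTT was found in 23.5% of members and 4.55% of all genes. CTCTTT was found in 22.1% and 1.61%, and TCTTTCC in 14.7% and 0.593%; these motifs overlap one another. Over 300 bases on both strands, TTCNNNGAA, the gamma-activated site, was found at RPL28 and RPL4 (2.94%, beside 9.38% of all genes). The core of the interferon-stimulated element, a GAAA followed by NN and a second GAAA, was found at RPL29, RPS12, RPS16 and RPS9 (5.88%, beside 4.38%). The 46 core members with a run of at least 5 had a median log2 change of -0.31, and the 16 with a shorter run one of -0.42.

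The 4 largest falls were in large-subunit genes with long coding sequences. RPL3, which lines the peptidyl transferase centre, had the highest level of all members. It measured 2069, 2135 and 2041 CPM in vehicle and 1103, 1075 and 1127 CPM in cytokine replicates 1, 2 and 3. All vehicle libraries stood far above all cytokine libraries, and the fold was 0.529 (log2 -0.92, SE 0.037, edgeR adjusted p = 5.08e-19). Its share of all member counts went from 8.17 ± 0.16% to 5.72 ± 0.14% (SD, n = 3). RPL3 (ENSG00000100316) spans bases 39312882 to 39320389 of chromosome 22 (GRCh38, GENCODE 29, minus strand), with 1209 coding bases in its principal transcript.

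RPL5 binds 5S rRNA together with RPL11, and free RPL5 and RPL11 also bind MDM2, the ligase that targets p53. RPL5 measured 577, 576 and 549 CPM in vehicle and 313, 315 and 313 CPM in cytokine replicates 1, 2 and 3 (log2 -0.85, SE 0.039, edgeR adjusted p = 1.66e-17). Its partner RPL11 fell from 241, 261 and 239 CPM to 193, 206 and 216 CPM (log2 -0.27, SE 0.047, edgeR adjusted p = 1.41e-05). The libraries of the groups did not overlap for either gene. The difference between the partners was not tested.

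RPL6 went from 564, 571 and 537 CPM to 316, 305 and 310 CPM (log2 -0.84, SE 0.040), and RPL4 from 891, 926 and 884 CPM to 507, 505 and 512 CPM (log2 -0.83, SE 0.038). Cytokine libraries of both genes lay within a narrow band well under all vehicle libraries. RPL6 sits on the surface of the large subunit, while RPL4 reaches into the exit tunnel of the nascent chain. RPL5 lies on chromosome 1 at 92831983 to 92841924, RPL6 on chromosome 12 at 112405190 to 112418838 and RPL4 on chromosome 15 at 66498015 to 66524532. RPL23, another large-subunit protein that binds MDM2, went from 182, 193 and 177 CPM to 116, 122 and 126 CPM (log2 -0.60, SE 0.047). RPS7, a small-subunit protein known to bind MDM2 too, went from 262, 273 and 245 CPM to 166, 173 and 174 CPM (log2 -0.60, SE 0.045).

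RPS12 was the exception. This small-subunit protein, which sits at the beak of the subunit, measured 294, 343 and 309 CPM in vehicle and 404, 411 and 420 CPM in cytokine replicates 1, 2 and 3. All cytokine libraries stood above all vehicle libraries, by 1.30-fold on average (log2 0.38, SE 0.046, edgeR adjusted p = 3.18e-08). Over 16 other settings the log2 change lay between 0.18 and 0.46, with a highest adjusted p of 0.000777. Its share of member counts went from 1.23 ± 0.062% to 2.14 ± 0.035% (SD, n = 3). RPS12 (ENSG00000112306) spans bases 132814441 to 132817564 of chromosome 6 (GRCh38, plus strand).

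**Figure D3:**
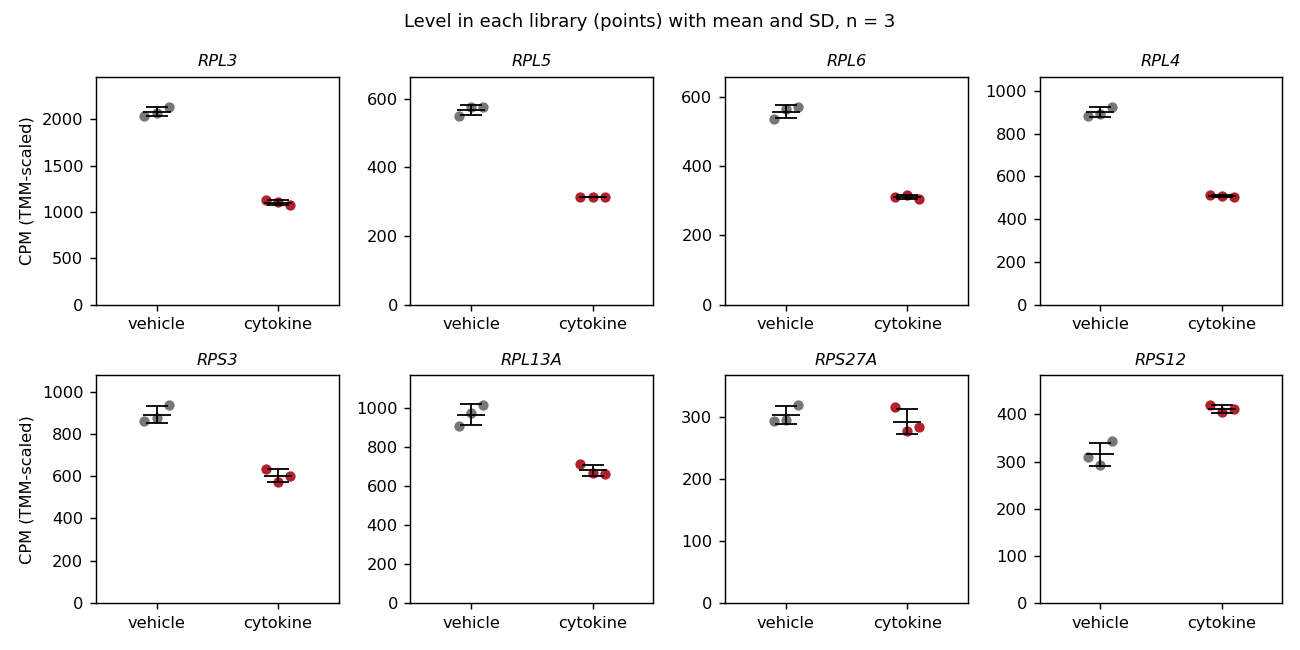
Each panel gives the level in CPM (vertical axis, from 0) of one gene in the 3 vehicle and 3 cytokine libraries as points, with the mean and SD as bars. Cytokine libraries lie under all vehicle libraries for RPL3, RPL5, RPL6, RPL4, RPS3 and RPL13A, overlap them for RPS27A and lie above them for RPS12.

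RPS3 and RPL13A, with their roles in NF-kB binding and the GAIT complex, were both lower. RPS3 measured 876, 936 and 861 CPM in vehicle and 572, 600 and 634 CPM in cytokine replicates 1, 2 and 3 (log2 -0.57, SE 0.042, edgeR adjusted p = 1.71e-12). RPL13A went from 976, 1014 and 908 CPM to 664, 662 and 711 CPM (log2 -0.51, SE 0.043, edgeR adjusted p = 1.96e-11). Neither gene overlapped between groups. Of the other 3 genes of the GAIT complex, SYNCRIP, which encodes an RNA-binding protein, rose from 94.7 ± 1.45 to 111 ± 0.839 CPM (SD, n = 3; log2 0.23, SE 0.046), while GAPDH (log2 0.08) and EPRS1 (log2 0.04) did not pass. With library size alone SYNCRIP did not pass (log2 0.03).

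RPS6, the substrate of S6 kinase under mTOR, went from 518, 534 and 508 CPM to 349, 361 and 365 CPM (log2 -0.54, SE 0.040). RPS4X, an X-linked core protein of the small subunit, went from 621 ± 8.73 to 447 ± 9.36 CPM (SD, n = 3; log2 -0.47, SE 0.038). RPS19, a protein of the small subunit head whose loss causes Diamond-Blackfan anaemia, went from 236, 252 and 225 CPM to 185, 186 and 211 CPM (log2 -0.29, SE 0.051). RPSA, which also has a form known as the laminin receptor, went from 411, 438 and 409 CPM to 328, 329 and 341 CPM (log2 -0.33, SE 0.041). All 4 genes kept their groups apart and were lower in all 16 other settings. RPS27A, made as a fusion with ubiquitin, overlapped between groups at 296, 319 and 294 CPM in vehicle and 278, 284 and 316 CPM in cytokine libraries (log2 -0.05, SE 0.048, edgeR adjusted p = 0.391).

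The stalk recruits and activates the translation factors that hydrolyse GTP, and consists of RPLP0 with dimers of RPLP1 and RPLP2. All 3 genes were lower. RPLP0, its base, went from 1061, 1098 and 1006 CPM to 800, 788 and 809 CPM (log2 -0.40, SE 0.039). RPLP1 went from 256, 278 and 242 CPM to 221, 226 and 241 CPM (log2 -0.17, SE 0.048), and RPLP2 from 167, 172 and 158 CPM to 152, 148 and 150 CPM (log2 -0.14, SE 0.045). RPLP1 kept its groups apart by a small gap, between vehicle replicate 3 and cytokine replicate 3. Without vehicle replicate 2, RPLP1 (log2 -0.10, edgeR adjusted p = 0.0734) and RPLP2 (log2 -0.09, edgeR adjusted p = 0.109) no longer passed, the highest adjusted p of their alternatives. RPLP2 also failed to pass in DESeq2 with its own filter (log2 -0.12, DESeq2 adjusted p = 0.0712).

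Large and small subunits had similar typical changes. Of 46 core large-subunit genes, 41 were lower and 5 did not pass, with a median log2 change of -0.34. Of 31 core small-subunit genes, 23 were lower, 1 was higher and 7 did not pass, with a median of -0.33. The medians differed by -0.01 on the log2 scale. Among single libraries of a group the large minus small median had an SD of 0.04. That SD is not the spread of a difference between group means. Summed counts, which weight each gene by its level, differed more. The ratio of large-subunit to small-subunit counts was 1.75, 1.74 and 1.75 in vehicle and 1.57, 1.54 and 1.53 in cytokine replicates 1, 2 and 3. No cytokine library reached the lowest vehicle ratio. Among the members not past the test were RPL19, RPL27, RPL38 and RPL41 in the large subunit and RPS15, RPS16, RPS21, RPS27A and RPS29 in the small subunit. RPL41 (SE 0.20) and RPS29 (SE 0.19) had log2 changes of -0.35 and -0.41 that were too imprecise to pass, while the median SE of the members was 0.047. RPL38, RPS21 and RPS29 were called lower with library size alone, with no low count filter and with the replicate block. Each also passed with at least one library left out, whereas RPL41 passed in none of the 16 other settings. RPL35, RPL39, RPL8 and RPS2 passed as lower although single libraries of the groups overlapped. The call of RPS2 (log2 -0.11, SE 0.045) was the least stable of these, holding in 9 of 16 other settings.

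Longer coding sequences went with larger falls in the large subunit. Across 77 core genes, Pearson's r between log2 coding length and log2 change was -0.34 and Spearman's rho -0.34. The r was -0.47 over 46 large-subunit genes and -0.10 over 31 small-subunit genes, and -0.02 over 10651 other protein-coding genes of at least 10 CPM. These genes share libraries and are not independent, so no p is given. The 25 core genes with 582 to 1281 coding bases had a median log2 change of -0.51, and 23 of them were lower. The 25 with 75 to 399 coding bases had a median of -0.30, and 20 were lower. The 27 in between, with 405 to 576 coding bases, had a median of -0.29, and 21 were lower, so the medians of the shortest and middle groups were in the reverse order. The same length pattern also separated replicates of one group: r between log2 coding length and the log ratio of a pair of replicates ran from -0.79 to 0.68. The ratio of summed counts of the longest to the shortest group was 4.69, 4.11 and 4.42 in vehicle and 3.80, 3.54 and 3.52 in cytokine libraries. The part of this spread between libraries in the changes of long members was not tested. Level went along too, with an r of -0.33 between log2 vehicle CPM and log2 change.

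**Figure D4:**
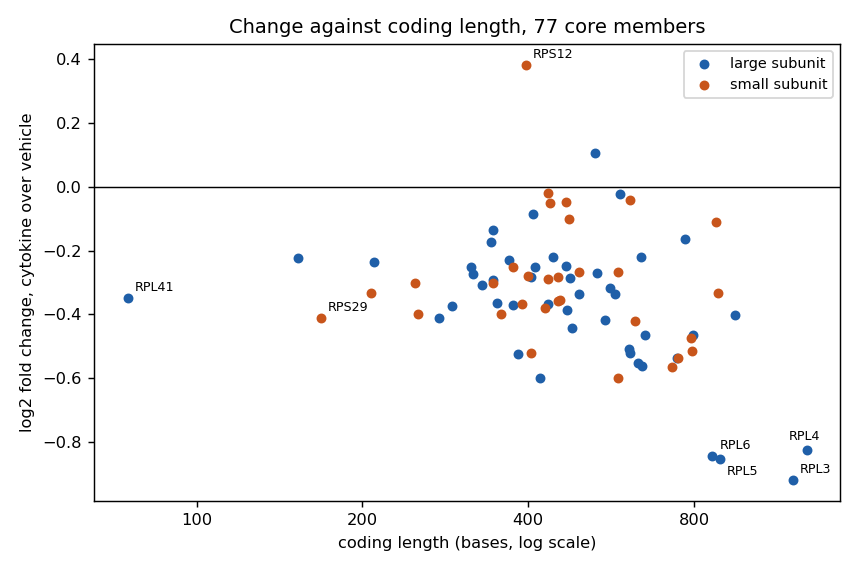
Each of 77 core members is a point, with coding length in bases on a log axis and the log2 fold change on the vertical axis, coloured by subunit. RPL3, RPL4, RPL5 and RPL6 lie at the lower right with log2 changes from -0.92 to -0.83, and RPS12 lies alone at the top at 0.38.

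Levels per kilobase of transcript allow members to be set beside each other. The highest were RPL3 (1444 CPM per kb in vehicle, 764 in cytokine), RPS3 (1029 and 695) and RPL7A (985 and 714), the last a large-subunit gene that fell by 0.46 on the log2 scale. With cytokines RPL7A stood above RPS3, and the gap between them was not tested. The lowest core members were RPL37 (24.7 and 19.1 CPM per kb), RPL37A (49.4 and 37.4) and RPL27A (56.2 and 48.2). Their low place follows from the transcript models used, of 7686, 3647 and 4916 bases, with coding parts of 291, 276 and 444 bases. All 3 were lower, with log2 changes of -0.37 for RPL37, -0.41 for RPL37A and -0.22 for RPL27A. RPL37A lost the call without cytokine replicate 2 (log2 -0.41, edgeR adjusted p = 0.116, the highest of its alternatives) or vehicle replicate 3 (log2 -0.45, edgeR adjusted p = 0.0531), with a change as large as in all 6 libraries.

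The paralogs had a median log2 change of -0.08 with TMM and of -0.29 with library size alone. Of 8, RPL10L, a testis gene, was at 0 counts in each library, which allows up to 3 counts per library, and RPL3L, a gene of heart and skeletal muscle, had 0 to 5 counts per library; neither was tested. Of the 6 tested, RPS27L (log2 -0.26, SE 0.075) and RPL7L1 (log2 -0.14, SE 0.046) were lower and 4 did not pass. With library size alone 4 of 6 were lower, RPL36AL (log2 -0.23) and RPL26L1 (log2 -0.30) being added. The TMM calls of RPS27L and RPL7L1 were both lost without vehicle replicate 2 and in DESeq2 with its own filter. That of RPS27L was also lost without cytokine replicate 1. RPL22L1 measured 6.04, 7.26 and 5.73 CPM in vehicle and 6.99, 6.52 and 7.10 CPM in cytokine libraries (log2 0.13, SE 0.13), and its sign turned with library size alone (log2 -0.07). RPL36AL measured 61.6, 77.2 and 68.1 CPM and 65.4, 66.0 and 73.1 CPM (log2 -0.03, SE 0.063), and its groups overlapped. RPL26L1 (log2 -0.10, SE 0.090) was at 15.6 ± 1.30 and 14.4 ± 0.399 CPM (SD, n = 3), and RPL39L (log2 -0.07, SE 0.22) at 2.18 ± 0.365 and 1.98 ± 0.189 CPM (SD, n = 3).

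Within a library, scaling moves the ratio of a paralog to its parent only through the added 0.5 CPM. Set against its parent, 5 of 6 testable paralogs stood higher in every cytokine library than in any vehicle library. The parents of these pairs were all lower, and such a ratio rises also where the paralog stays level. By level alone, 2 of 6 tested paralogs did not overlap between groups (33.3%), beside 61.1% of all tested genes. Ratios of other genes to these parents were not computed, so whether the count is particular to paralogs was not tested. RPL22L1 counted 3.52%, 4.04% and 3.42% of the counts of RPL22 in vehicle and 5.85%, 5.42% and 5.88% in cytokine replicates 1, 2 and 3, a log2 ratio higher by 0.63. RPL22 itself fell from 171, 179 and 167 CPM to 120, 120 and 121 CPM (log2 -0.52, SE 0.045). RPL7L1, a factor of large-subunit assembly, counted 31.4%, 34.0% and 34.2% of RPL7 in vehicle and 47.1%, 44.1% and 40.5% in cytokine libraries, higher by 0.40, as RPL7 fell from 514, 532 and 494 CPM to 339, 347 and 376 CPM. The cytokine libraries of both pairs lay above all vehicle libraries.

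RPL26L1 over RPL26 was higher by 0.25, RPL36AL over RPL36A by 0.24 and RPS27L over RPS27 by 0.14 on the log2 scale, again without overlap. RPL36AL is the one paralog here with more counts than its parent, at 262%, 276% and 271% of RPL36A in vehicle and 351%, 292% and 321% in cytokine libraries. For these 5 pairs the two-sided exact permutation test gave p = 0.1, the smallest that 3 against 3 libraries allow, and 0.12 after adjustment over 6 pairs. RPL39L over RPL39 was higher by 0.10 with overlapping libraries (exact permutation p = 0.6, adjusted 0.6). Of the parents, RPL26 (log2 -0.37), RPL36A (log2 -0.27), RPL39 (log2 -0.22), RPS27 (log2 -0.40) and RPL7 (log2 -0.54) were lower, as were RPL10 (log2 -0.22) and RPL3. Without vehicle replicate 2, RPL36A (log2 -0.20) and RPL39 (log2 -0.13) no longer passed, and without cytokine replicate 1 they did not either (log2 -0.17 and -0.14). In DESeq2 both also failed to pass, on the filtered genes and with its own filter. RPS27 did not pass without cytokine replicate 2 (log2 -0.41).

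**Figure D5:**
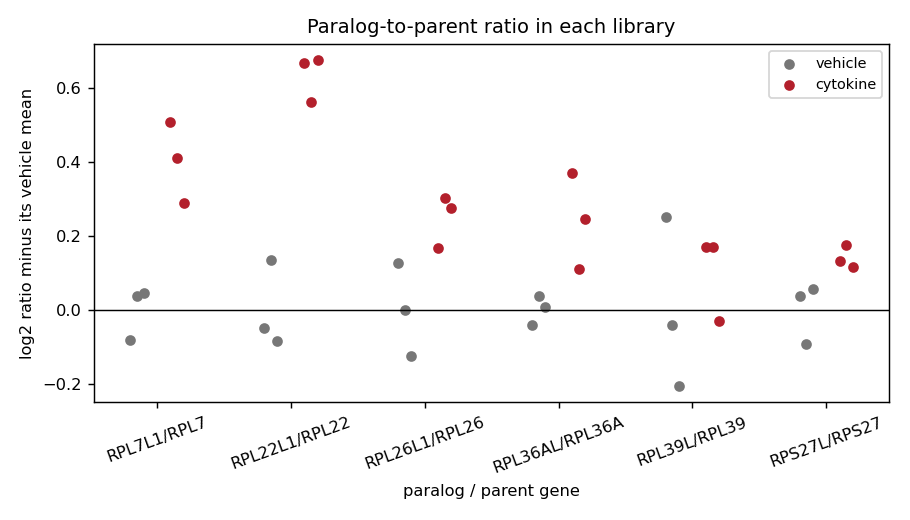
For each pair, points give the log2 ratio of paralog over parent in each library minus the mean of the vehicle libraries. Cytokine points lie above all vehicle points in 5 pairs, most for RPL22L1 over RPL22 (0.63 on average), and overlap for RPL39L over RPL39.

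Genes outside the rule that share a role with the members were counted from lists. Each list count is to be read beside the shares of all tested genes. With TMM these were 28.8% lower and 28.3% higher, and with library size alone 49.2% lower and 16.7% higher. Of 3 ribosomal components with other names, RACK1, a scaffold on the small subunit, fell from 541 ± 18.1 to 406 ± 15.5 CPM (SD, n = 3; log2 -0.41, SE 0.041). FAU (log2 -0.04), made as a fusion with a ubiquitin-like protein, did not pass. Other mRNAs known to carry the TOP motif moved as the members did: 15 of 16 were lower and none was higher, with a median log2 change of -0.40. EIF3L, a subunit of initiation factor eIF3, went from 183 ± 3.53 to 98.1 ± 2.41 CPM (SD, n = 3; log2 -0.90, SE 0.045). EEF1D, at a log2 change of 0.03, did not pass.

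Among 13 regulators of TOP translation, 5 were higher, 2 lower and 6 did not pass with TMM, but 1 was higher and 7 lower with library size alone. LARP1, which binds the TOP motif, rose under both, from 346, 373 and 352 CPM to 478, 462 and 459 CPM (log2 0.38, SE 0.041). MLST8, a subunit of the mTOR complexes, fell under both, from 49.8 ± 0.684 to 39.1 ± 1.73 CPM (SD, n = 3; log2 -0.35, SE 0.059). RNA polymerase I, which makes rRNA, and its cofactors had 6 lower and 8 not past of 14, with a median of -0.09. Of these POLR1E fell most, from 11.5 ± 0.969 to 7.63 ± 0.635 CPM (SD, n = 3; log2 -0.60, SE 0.11).

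Ribosome assembly factors did not move as one. Of 48, 21 were higher, 7 lower and 20 not past with TMM, while 8 were higher and 16 lower with library size alone. RRP12, a factor of small-subunit export, rose under both scalings, from 41.6, 48.9 and 40.9 CPM to 86.7, 85.8 and 87.0 CPM (log2 0.98, SE 0.059). NPM1, a nucleolar chaperone, fell from 481 ± 6.61 to 340 ± 5.05 CPM (SD, n = 3; log2 -0.50, SE 0.039). Of 77 mitochondrial ribosomal protein genes, 20 were lower, 10 higher and 47 not past, with a median of -0.03, beside 66 of 83 lower and a median of -0.32 for the cytosolic members. Of all tested genes, 28.8% were lower and 28.3% higher. With library size alone, 47 mitochondrial genes were lower and 3 higher, beside 49.2% lower and 16.7% higher of all tested genes. MRPL44 rose from 23.4 ± 0.551 to 37.4 ± 0.409 CPM (SD, n = 3; log2 0.66, SE 0.066), and MRPS24 fell from 9.63 ± 0.884 to 6.07 ± 1.18 CPM (SD, n = 3; log2 -0.63, SE 0.13).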

How the data were processed

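The 3 vehicle and 3 cytokine libraries were grouped by the treatment label. RNA came from a Nucleospin miRNA kit and libraries from a directional NEBNext Ultra II kit, per the labels' protocols. GRCh38, STAR 2.7.5a, HTSeq 0.12.4 and cutadapt 2.10 appear with no role stated, per the submitters' processing notes, and for annotation and counting strand the entry is: not given in the sources used here. Estimated counts without normalisation, often with fractions, are what the authors deposited for each gene and library. The authors also deposited log2 fold changes, mean log2 CPM, an F score, p-values and FDR, per the file headers. Here they served only to count and name calls. Columns carrying NT were taken as vehicle.

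Estimated counts were rounded, although the design named counts as deposited, filtered with filterByExpr (17847 genes kept), scaled by TMM and tested with a robust quasi-likelihood fit in edgeR 4.0.16 (R 4.3.3), with Benjamini-Hochberg adjustment over all genes at 0.05. SE was the size of the log2 change divided by the square root of F. Paralog pairs with at least 10 counts per library were compared as log2 ratios of CPM plus 0.5 by an exact permutation test. Transcript length was that of the shortest GENCODE 29 transcript with the principal coding length. Alternatives were other scalings, DESeq2 1.42.0, other filters, unrounded counts, an adjusted p of 0.01, a block on replicate number, the removal of each library and, added after seeing the data, pseudogene counts and DESeq2 on the filtered genes. Simulated data for 17620 genes of this comparison had 50 genes changed at each size and the rest unchanged. They recovered 46%, 80%, 100% and 100% of genes changed by 0.25, 0.5, 1 and 2 (log2), with 9 of 172 calls false. In the measured libraries 28.8% of tested genes were lower and 28.3% higher, so these rates need not hold there. Replicates differed by a chi-square of 1.34 to 2.32 per gene, so none was counted as a duplicate. The common coefficient of biological variation came to 3.47%. As the labels do not call the batches separate cultures, p-values rest on a spread that may be technical. Intervals of 0 counts cover counting error only.

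Named members were those with known roles outside the ribosome, paralogs and their parents, the 6 largest falls and rises past the test at 10 CPM or more, the 3 highest and lowest per length, and the largest rise and fall of each list. The members and lists were chosen with earlier results of these data known. A few genes are not reported here by name. RPL8, RPL35, RPS2, the other members listed as not past the test, EEF1D, FAU, GAPDH and EPRS1 were named after their values were seen.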

Additional observations from a re-analysis of the deposited data

How the results depend on the processing

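Over 16 settings of the test the members' median stayed negative and RPS12 was higher. Estimated counts, unknown strand setting and reads shared with pseudogenes or paralogs limit single genes; RPL39L and RPL22L1 rest on 15 to 105 counts per library. Members called lower ranged from 58 without vehicle replicate 2, which lost RPL35, RPL36A, RPL39, RPL7L1, RPL8, RPLP1, RPLP2 and RPS27L, to 78 with library size alone, and members called higher from 1 to 2 when a library was left out. DESeq2 called 60 members lower with its own filter and 63 on the filtered genes. Replicate numbers did not pair the libraries (correlations of same-numbered deviations 0.064, 0.021 and -0.069), and with the replicate block 69 members were lower. The median member changed by -0.52 with library size alone and by -0.35 to -0.24 with a library left out. The large minus small median ran from -0.038 to 0.0047 with a library left out, the positive value without cytokine replicate 2. The members' share of counts changed by -0.933 percentage points, and by -1.02 with protein-coding nuclear genes as denominator. The RPL39L to RPL39 ratio ran from -0.00014 to 0.23, turning without vehicle replicate 3. Signs turned for RPL22L1 with library size alone (-0.072), RPL36AL without cytokine replicate 1 (0.013) or vehicle replicate 2 (0.063), and, without vehicle replicate 2, RPL39L (0.045) and RPS27A (0.0023). With a library left out these ranged from -0.076 to 0.063 for RPL36AL, from -0.27 to 0.045 for RPL39L and from -0.097 to 0.0023 for RPS27A. None of the turned values passed the test. The cause of these shifts was not tested.

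Of the other lists, library size alone gave 3 lower ribosomal components named otherwise and 1 higher and 7 lower TOP regulators. It gave 10 lower RNA polymerase I genes and 8 higher and 16 lower assembly factors. It also gave 0 higher and 3 lower GAIT genes, and 3 higher and 47 lower mitochondrial ribosomal protein genes. Of all tested genes, 49.2% were lower and 16.7% higher with library size alone. DESeq2 on the filtered genes gave 1 lower TOP regulator, 4 lower assembly factors, 2 higher GAIT genes and 6 higher and 11 lower mitochondrial ribosomal protein genes. DESeq2 with its own filter gave 1 lower TOP regulator, 3 lower RNA polymerase I genes, 3 lower assembly factors, 2 higher GAIT genes and 5 higher and 9 lower mitochondrial ribosomal protein genes. An adjusted p of 0.01 gave 1 lower TOP regulator, 4 lower assembly factors and 5 higher and 12 lower mitochondrial ribosomal protein genes. DESeq2 size factors in edgeR and no low count filter each gave 1 lower TOP regulator. With a library left out, TOP regulators ranged from 3 to 5 higher and 1 to 2 lower, GAIT genes from 1 to 2 higher and mitochondrial ribosomal protein genes from 11 to 20 lower.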

Other observations

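Pseudogenes of the members, which carry the symbol followed by P and a number, were counted in 1348 genes, of which 614 had counts in any library. They held 0.0588 ± 0.0011% of counts in vehicle and 0.0406 ± 0.0011% in cytokine libraries (SD, n = 3), a ratio of 0.691 beside 0.658 for the members. Adding their counts to the members left 66 lower and RPS12 higher. Read-through genes that join RPL17, RPL36A or RPS10 to a neighbouring gene held 0.0383 ± 0.0015% and 0.0302 ± 0.0007% (SD, n = 3). In the authors' deposited table, 1 member was higher and 68 were lower at an FDR of 0.05. These 68 included RPL38, RPL41, RPS21 and RPS29, which did not pass here. They left out RPS2 and RPL7L1, which did.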
